A study of Mus musculus with 16 samples.

Results

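Plasmacytoid dendritic cells (pDCs) of bone marrow (BM) were picked from the 6 libraries of CD45+ Ter119- marrow cells by 2 surface receptor transcripts. A cell was taken as a pDC when it held at least 2 UMIs (counted RNA molecules) of Siglech and at least 3 UMIs of Siglech and Ccr9 together, among cells with more than 200 and fewer than 6000 detected genes and at most 10% of UMIs from mitochondrial genes. By this rule 429 of 31191 kept CD45+ marrow cells were pDCs, out of 73176 kept cells in the whole series of 16 libraries. Since Siglech and Ccr9 chose the cells, their levels in these cells are given as a description, and a test of them is given below for cells chosen by other genes.

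All mice were female BALB/c. The WT group (labeled as control) carried no tumor and was untreated. The vehicle and IACS-70654 groups carried 2208L, a Trp53-null mammary tumor line that is transplanted into syngeneic hosts, in the mammary fat pad, and were treated orally for 7 days per the series record, from which the study's text differs by a day, with methylcellulose or with IACS-70654, an inhibitor of the bromodomains of the acetyltransferases CBP and P300. Each group had 2 libraries, and cells of 3 mice were pooled. It is not stated whether the 2 libraries of a group came from separate pools, so p-values may cover only the technical spread between libraries.

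pDCs are circulating cells that arise in BM and recognize viral nucleic acids in endosomes, and they are the cell type best known for fast and abundant secretion of type I interferon. Their identity rests on the transcription factor Tcf4 (E2-2), with Irf8, Runx2, Spib and Bcl11a. In mice they bear the lectin Siglech, the tetherin Bst2 and the chemokine receptor Ccr9, and they share with B cells several lymphoid transcripts, among them Ly6d and Mzb1.

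The 6 libraries held between 27816638 and 54510172 UMIs and between 4394 and 6154 kept cells, and no barcode was shared within the 15 pairs of these libraries. Pairs with a library of tumor or of Lin- c-Kit+ marrow shared up to 14 barcodes. Cells were tagged by sample and split by tag, so the 6 may be parts of 1 capture, which was not tested. A pDC held a median of between 6074.5 and 7645 UMIs, depending on the library. The summed pDCs of a library gave between 388728 UMIs (vehicle replicate 1) and 783614 UMIs (WT replicate 2), so the WT sums were the deepest. Levels are given below as CPM, the UMIs of a gene scaled to 1000000 UMIs of those sums. Many pDCs lay far above the limit of the rule, since 223 of 429 held at least 12 Siglech UMIs. Near the limit, 18 cells were taken with exactly 3 UMIs over both genes, while 16 cells with 2 Siglech UMIs and no Ccr9 UMI, and 2 cells with 1 Siglech UMI and some Ccr9, were not.

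The label was checked against genes that the rule did not use. Tcf4, the master regulator of the lineage, was at 5037 and 5043 CPM in WT pDCs. Bst2 was at 1640 and 1852 CPM there, and Irf8, the factor that pDCs share with other dendritic cells, at 2488 and 2510 CPM. Cox6a2, a subunit of cytochrome c oxidase that pDCs share with muscle, had a UMI in 84.6% and 87.9% of WT pDCs, against 0.872% and 0.863% of the other kept cells of the same libraries. Markers of other cell types were at different levels in pDCs. The 9 erythroid marker genes in the files summed to between 2.25 and 9.41 CPM, and 3 of them had no UMI in any pDC. The 17 B cell markers summed to between 429 and 745 CPM, the 16 T and NK cell markers to between 171 and 240 CPM, and the 12 conventional dendritic cell markers to between 303 and 432 CPM, which for the last was above the other kept cells (between 130 and 177 CPM). For B cell markers and for T and NK cell markers, pDCs lay above the other kept cells only in IACS-70654 replicate 1. The values there were 542 beside 235 CPM and 209 beside 192 CPM. The 18 monocyte markers summed to between 1202 and 1726 CPM, beside between 2069 and 2772 CPM in the other kept cells. Neutrophil RNA was the most abundant of these: 25 neutrophil markers summed to 31155 and 16882 CPM in WT pDCs, 41224 and 42172 CPM in vehicle pDCs, and 30560 and 55601 CPM in IACS-70654 pDCs. In the other kept cells the same markers summed to between 228096 and 339463 CPM. The median pDC of a library held between 0.839% and 0.919% of its UMIs in these markers, so a minority of pDCs with more raised the sums. The part of this RNA in the results was not tested, except where a value without the pDCs that bore doublet signs is given.

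The share of pDCs among CD45+ marrow cells was lower in tumor-bearing mice than in WT mice, with or without the drug. pDCs made up 2.27% (95% exact binomial interval 1.86% to 2.75%, 104 of 4579 cells) and 2.44% (2.00% to 2.94%, 107 of 4394) of kept cells in WT. The share was 0.978% (0.727% to 1.29%, 50 of 5112) and 0.887% (0.667% to 1.16%, 54 of 6087) in vehicle. It was 1.15% (0.871% to 1.49%, 56 of 4865) and 0.942% (0.716% to 1.22%, 58 of 6154) with IACS-70654. Intervals cover counting error only. Each WT library lay above all 4 libraries of tumor-bearing mice, and the vehicle and IACS-70654 libraries overlapped.

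**Figure D1:**
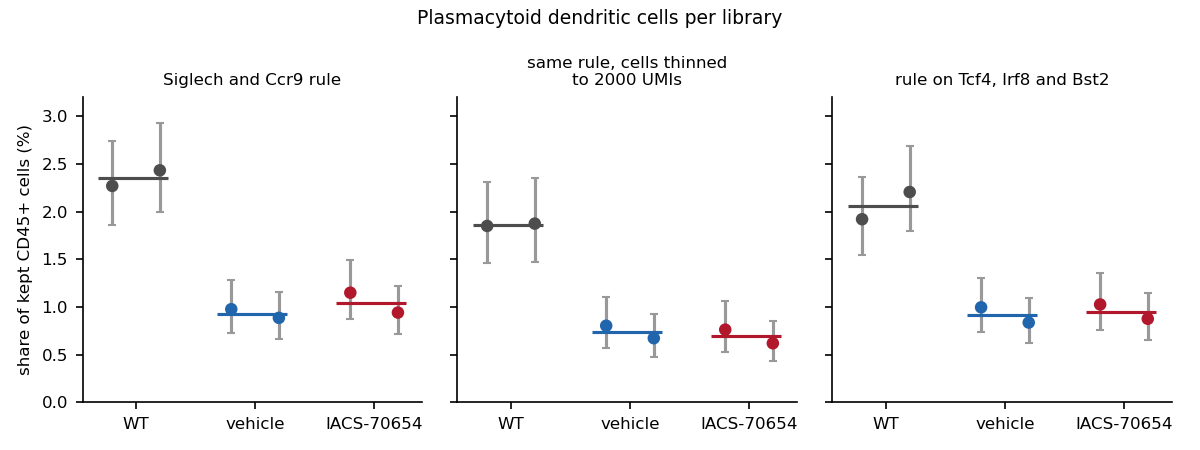
Share of pDCs among kept CD45+ marrow cells (y axis, percent) in each library (points, with 95% exact binomial intervals; horizontal lines are group means of 2 libraries), by the main rule, by the same rule after thinning every cell to 2000 UMIs, and by a rule on Tcf4, Irf8 and Bst2. In each panel both WT libraries lie above the vehicle and IACS-70654 libraries, which overlap.

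The mean share was 2.35% ± 0.116 (SD, n = 2) in WT and 0.933% ± 0.0643 (n = 2) in vehicle, a ratio of 0.396. With IACS-70654 it was 1.05% ± 0.148 (n = 2), which was 0.445 times the WT share and 1.12 times the vehicle share. An exact two-sided permutation test over libraries gave p = 0.333 for vehicle against WT and for IACS-70654 against WT, the smallest p that 2 against 2 libraries allow, and p = 0.667 for IACS-70654 against vehicle. UMIs per cell differed between groups: the median kept cell held 4113 and 4276.5 UMIs in WT, 5330.5 and 5328 in vehicle, and 6534 and 6596.5 with IACS-70654. After thinning each cell to 2000 UMIs, the shares were 1.85% and 1.88% in WT, 0.805% and 0.674% in vehicle, and 0.764% and 0.621% with IACS-70654.

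A share depends on what the other cells do. Per 100 B cells of the same library (at least 2 UMIs of Cd79a, at least 3 of Cd79a and Cd79b, and no Siglech), pDCs numbered 16.3 and 16.8 in WT, 36.0 and 34.4 in vehicle, and 127 and 58.0 with IACS-70654. Relative to B cells the direction was thus turned around, as B cells numbered 637 and 636 in WT, 139 and 157 in vehicle and 44 and 100 with IACS-70654. Per 100 monocytes (at least 3 UMIs over F13a1, Ms4a6c and Ccr2, with 2 or more of the genes seen, and no Siglech or Cd79a), pDCs numbered 26.5 and 26.8 in WT, 17.2 and 16.9 in vehicle, and 9.41 and 7.81 with IACS-70654.

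Siglech itself was level across the groups, at 1687 and 1766 CPM in WT pDCs, 1605 and 1765 in vehicle pDCs and 1784 and 1545 in IACS-70654 pDCs. Ccr9, the receptor for the gut chemokine Ccl25, was at 427 and 472 CPM in WT, 365 and 577 CPM in vehicle, and 108 and 80.9 CPM with IACS-70654. It had a UMI in 76.0% and 86.9% of WT pDCs, 72% and 81.5% of vehicle pDCs, and 50% and 34.5% of IACS-70654 pDCs. Both IACS-70654 libraries thus lay below the 4 others. To see these receptors in cells that they had not chosen, cells with at least 2 UMIs each of Tcf4, Irf8 and Bst2 and none of the B cell gene Cd79a or the monocyte gene F13a1 were taken instead, a rule set after the data had been seen. It took 391 cells, of which 361 were pDCs by the main rule, and 30 were not. In these cells Ccr9 was at 401 and 469 CPM in WT, 294 and 549 CPM in vehicle and 99.6 and 66.6 CPM with IACS-70654, a log2 change against vehicle of -2.35 (SE 0.27, edgeR quasi-likelihood test, adjusted p = 4.8e-05). Siglech did not pass the test there, with a log2 change of 0.18 (SE 0.11, adjusted p = 0.528).

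Vehicle was compared with WT, groups that differ in the tumor and also in its implantation and the oral vehicle, which cannot be told apart. None of 7124 genes tested in pDCs was called (0%), where a called gene had to change by over 0.5 on the log2 scale with an adjusted p below 0.01 (edgeR quasi-likelihood test on summed UMIs, Benjamini-Hochberg adjustment over all genes), nor did DESeq2 or limma-voom call any. An unadjusted p under 0.05 was reached by 479 genes. Nearest to a call, and named for that after the values were seen, was Pclaf, which encodes a PCNA-binding protein of replicating cells: it was at 179 and 208 CPM in WT and at 72.0 and 73.6 CPM in vehicle (log2 change -1.40, SE 0.20, adjusted p = 0.0122). Doublet signs were at least 2 UMIs of Cd79a, of the T cell gene Cd3e or of F13a1, over 5% neutrophil marker UMIs, or a call by the program Scrublet, and between 6 and 11 pDCs of a library bore one. Without these pDCs 4 genes were called, Pclaf, Ly6d and Ifi27l2a among them. Leaving out 1 library at a time gave between 1 and 17 calls, with 17 when either IACS-70654 library was left out.

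**Figure D2:**
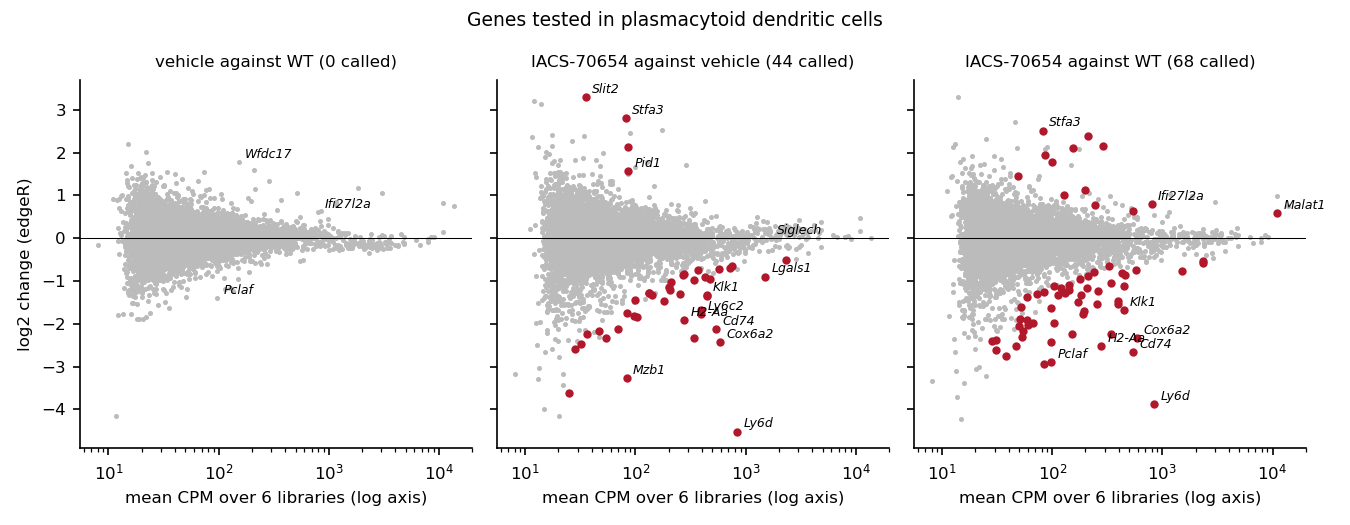
Log2 change fitted by edgeR (y axis) against the mean level in CPM over the 6 libraries (x axis, log scale) for the 7124 genes tested in pDCs, in each comparison. Red points are called genes (Ccr9, which the rule used, is among them), gray points are the rest. No gene was called for vehicle against WT, and most of the called genes of the IACS-70654 comparisons lie below 0.

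IACS-70654 was compared with vehicle to see what the drug changed in pDCs of tumor-bearing mice. Of 7124 genes tested 44 were called (0.618%), 4 higher (0.0561%) and 40 lower (0.561%) with the drug. The fit covers all genes, so Ccr9 is counted among them, but its value in these cells supports nothing. Without it 43 genes remain, 39 of them lower. In each of the 44 genes the 2 groups of libraries did not overlap. A call selects for this, so it adds no support. The median log2 change of all tested genes was 0.01. Without the pDCs that bore a doublet sign, 119 genes were called, 41 of them among the 44.

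Some of the genes that mark pDCs fell with the drug, while Tcf4, Irf8, Runx2 and Spib did not pass the test. Here and below, changes are of sums over pDCs. In such sums a shift among kinds of pDC and a change within each cell cannot be told apart. Of the 27 pDC identity genes tested besides Siglech and Ccr9, 7 fell (0.561% of all genes did) and none rose, and the median log2 change was -0.33. Against WT 8 of the 27 fell, beside 0.772% of all genes. The strongest fall was that of Ly6d, a GPI-anchored antigen of lymphoid progenitors, B cells and pDCs. It was at 1022 and 904 CPM in WT, 1806 and 1204 CPM in vehicle, and 6.74 and 115 CPM with IACS-70654. All 4 libraries without drug stood far above both with it, though the 2 drug libraries differed widely. The log2 change against vehicle was -4.52 (SE 0.39, adjusted p = 3.51e-06), or 23-fold lower, and against WT -3.88 (SE 0.39, adjusted p = 1.37e-05). Without IACS-70654 replicate 1 the change against vehicle was -3.69, and without replicate 2 it was -7.76. With DESeq2 the adjusted p of Ly6d was 0.0323 against vehicle and 0.104 against WT. The share of pDCs with a Ly6d UMI was 49.0% and 47.7% in WT, 64.0% and 66.7% in vehicle, and 5.36% and 17.2% with IACS-70654, next to 0.749% and 0.804% of other kept cells in the drug libraries.

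Cox6a2 was at 777 and 787 CPM in WT, 890 and 779 CPM in vehicle and 133 and 171 CPM with IACS-70654. The WT and vehicle libraries lay close together and the drug libraries far below them. The log2 change was -2.43 against vehicle (SE 0.14, adjusted p = 3.67e-08), the smallest p in that comparison, and -2.34 against WT (SE 0.14, adjusted p = 4.8e-08). After thinning to 2000 UMIs a cell, Cox6a2 had a UMI in 76.0% and 68.5% of vehicle pDCs and in 16.1% and 25.9% of IACS-70654 pDCs. Klk1, a tissue kallikrein protease, was at 609 and 665 CPM in WT, 458 and 544 CPM in vehicle, and 198 and 196 CPM with IACS-70654. Its log2 change was -1.34 against vehicle (SE 0.14, adjusted p = 4.57e-05) and -1.68 against WT (SE 0.13, adjusted p = 1.23e-06). Its relative Klk1b27, with which reads may be shared, was called against WT (log2 change -0.89, adjusted p = 0.00999), a call that held under 6 of 13 alternatives, and had -0.59 against vehicle (adjusted p = 0.172).

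**Figure D3:**
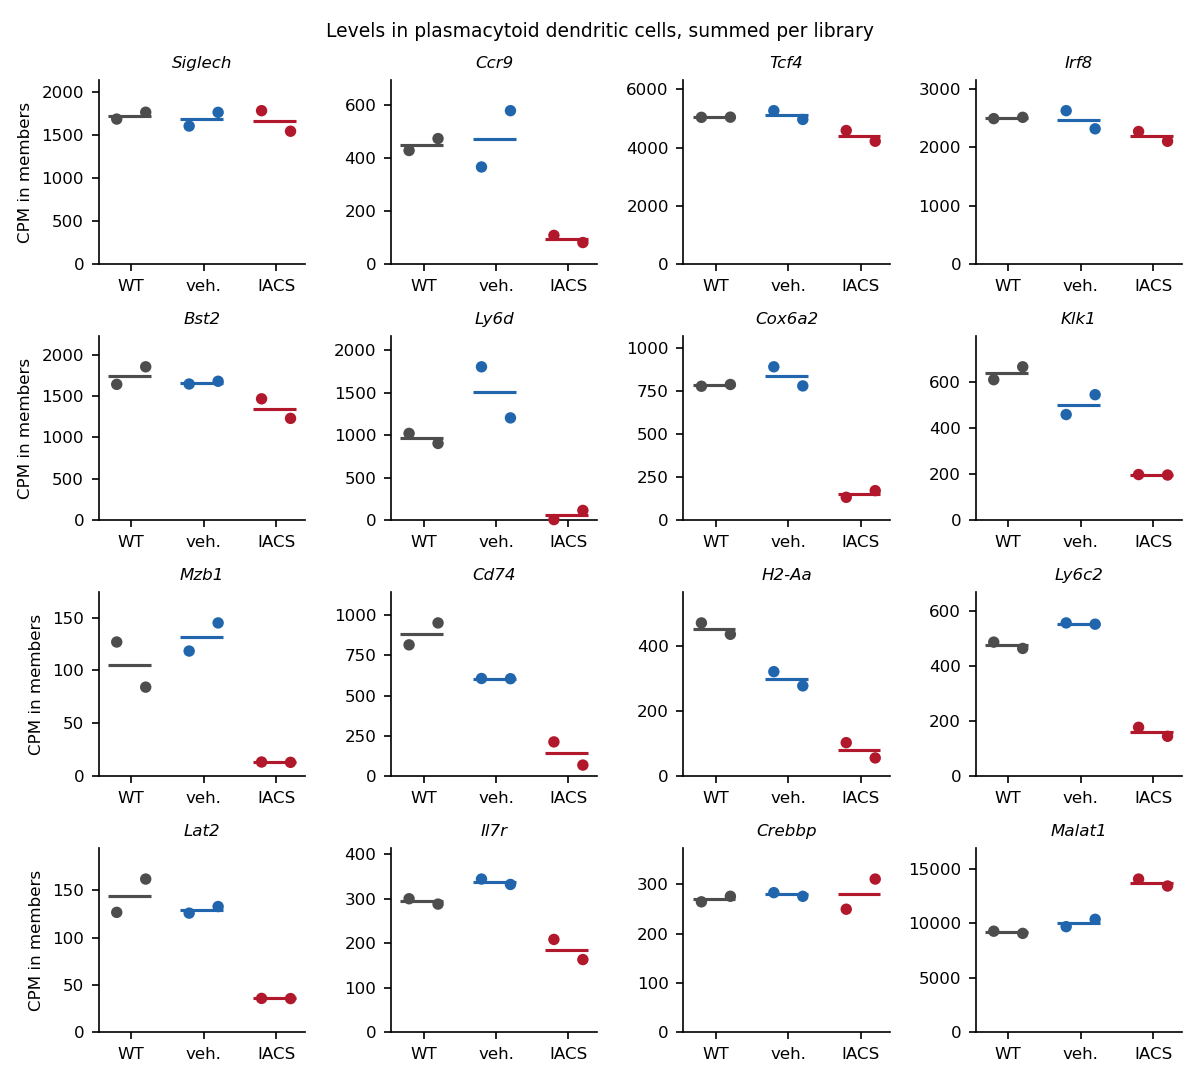
Level of 16 genes in the summed pDCs of each library (y axis, CPM; points are libraries, horizontal lines are group means of 2). Siglech is near level across the groups. Tcf4 and Irf8 are slightly lower in both IACS-70654 libraries than in the 4 others, without a call. Ccr9, Ly6d, Cox6a2, Klk1, Mzb1, Cd74, H2-Aa and Ly6c2 are lower there by more, and Malat1 is higher in both.

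Among the remaining identity genes, Ly6c2 was at 486 and 463 CPM in WT, 556 and 551 CPM in vehicle and 178 and 145 CPM with the drug (log2 change against vehicle -1.78, SE 0.14, adjusted p = 1.82e-06). Its neighbor Ly6c1, a near-identical copy with which it may share reads, moved alike (-1.67, SE 0.13). These are the genes behind the Ly6C antigen. Smim5, a small membrane protein, fell from 232 and 245 CPM to 112 and 62.1 CPM (-1.47, SE 0.23), and Pltp, a phospholipid transfer protein, from 183 and 183 CPM to 85.4 and 60.2 CPM (-1.33, SE 0.21). Each of these 2 calls held under 11 of 13 alternatives, with that of Pltp lost without IACS-70654 replicate 2 and that of Smim5 by the rule on Tcf4, Irf8 and Bst2. By contrast Bst2 had 1644 and 1677 CPM in vehicle and 1465 and 1229 CPM with the drug, and did not pass (-0.29, SE 0.11, adjusted p = 0.213). Plac8 did not pass either (-0.25, SE 0.09, adjusted p = 0.186).

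Of 25 transcription factors of the lineage tested, 1 was called lower against vehicle, beside 0.561% of all genes, and none was called higher. Tcf4 was at 5266 and 4965 CPM in vehicle and 4584 and 4216 CPM with IACS-70654 (log2 change -0.21, SE 0.08, adjusted p = 0.269). Irf8 was at 2624 and 2314 CPM in vehicle and 2267 and 2100 CPM with the drug (-0.17, SE 0.09, adjusted p = 0.498). Runx2, a factor for the exit of pDCs from marrow, had a change of -0.15 (SE 0.09, adjusted p = 0.537), and Spib one of -0.17 (SE 0.18, adjusted p = 0.793). Mef2c was at 1201 and 1335 CPM in vehicle and 1679 and 1643 CPM with the drug and did not pass (0.40, SE 0.10, adjusted p = 0.0499). The called factor was Ets1, which fell from 178 and 195 CPM to 78.7 and 73.4 CPM (-1.28, SE 0.19, adjusted p = 0.00206). Against WT the called factor was instead Id3, an inhibitor of E proteins, at 65.4 and 72.7 CPM in WT and 11.2 and 20.7 CPM with the drug (-2.05, SE 0.34, adjusted p = 0.00215). The Id3 call held under 10 of 13 alternatives and was lost with DESeq2 and without IACS-70654 replicate 1. Id3 had -1.92 against vehicle (adjusted p = 0.0121).

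MHC class II genes, which load peptides for CD4+ T cells, fell in pDCs. Of 12 MHC class II and costimulation genes tested, 3 fell against vehicle and 4 against WT, beside 0.561% and 0.772% of all genes, and none rose in either comparison. Their median log2 change was -0.38 against vehicle and -0.84 against WT. Cd74, the invariant chain, was at 816 and 952 CPM in WT, 607 and 606 CPM in vehicle and 213 and 69.6 CPM with IACS-70654. Its log2 change was -2.13 against vehicle (SE 0.27, adjusted p = 0.000261, and 0.0395 with DESeq2) and -2.67 against WT (SE 0.25, adjusted p = 6.71e-06). The first was -3.11 without IACS-70654 replicate 1 and -1.51 without replicate 2. H2-Aa, the alpha chain of I-A, was at 471 and 436 CPM in WT, 322 and 278 CPM in vehicle, and 103 and 56.5 CPM with the drug (-1.92 against vehicle, SE 0.21, adjusted p = 5.54e-05). H2-Eb1, the beta chain of I-E, was at 167 and 149 CPM in WT, 131 and 76.0 CPM in vehicle and 29.2 and 28.2 CPM with the drug (-1.82, SE 0.31, adjusted p = 0.00461, and 0.0418 without vehicle replicate 1). H2-Ab1 passed only against WT (-1.77, SE 0.20, adjusted p = 7.31e-05). For each of the 4 genes the order of the libraries was WT above vehicle above IACS-70654, and the fall from WT to vehicle did not pass the test (adjusted p between 0.257 and 0.653). In cells taken by the rule on Tcf4, Irf8 and Bst2, that fall of H2-Aa was called (-0.90, adjusted p = 0.00976). Of 22 MHC class I genes tested none was called in any comparison. Of all genes 0% were called for vehicle against WT, 0.618% against vehicle and 0.955% against WT, so 0 of 22 is near that share. The median log2 change of the 22 was -0.07 against vehicle and 0.04 against WT. H2-D1 was at 924 and 829 CPM in vehicle and 1018 and 905 CPM with the drug.

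Since these class II genes moved together, the start regions of those with an entry in the RefSeq promoter table, 2 of the 4, are shown from 250 bases before to 50 bases after the annotated start, in the build GRCm38.p6. This reference is of another mouse strain than BALB/c, and the class II region differs between strains. H2-Aa lies on the minus strand (chr17:34287774-34288073) and H2-Eb1 on the plus strand (chr17:34305617-34305916). Both are read 5′ to 3′ on the gene's own strand. Capitals mark each match to the CCAAT box, searched as CCAAT and its reverse complement ATTGG, the core of the Y box of class II promoters.
H2-Aa: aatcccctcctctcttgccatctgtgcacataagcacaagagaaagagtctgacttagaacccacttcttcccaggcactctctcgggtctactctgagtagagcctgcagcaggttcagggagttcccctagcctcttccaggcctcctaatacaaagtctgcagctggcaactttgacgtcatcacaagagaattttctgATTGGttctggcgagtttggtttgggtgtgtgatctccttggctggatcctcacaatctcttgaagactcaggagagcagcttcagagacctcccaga
H2-Eb1: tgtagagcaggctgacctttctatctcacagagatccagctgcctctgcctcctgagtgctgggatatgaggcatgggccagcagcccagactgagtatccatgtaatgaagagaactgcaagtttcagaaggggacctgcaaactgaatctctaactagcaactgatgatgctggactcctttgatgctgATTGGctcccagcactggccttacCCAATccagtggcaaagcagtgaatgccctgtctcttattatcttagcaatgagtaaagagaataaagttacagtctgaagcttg
H2-Aa held 1 match and H2-Eb1 held 2, with the first at 48 and 59 bases before the start. A match is common, as 37.4% of all 32851 promoter windows of that length hold one.

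Several surface receptors fell. Of 42 tested besides Siglech and Ccr9, 5 fell against vehicle, 5 fell against WT (0.561% and 0.772% of all genes) and none rose in either. The median log2 change was -0.32 against vehicle. Those against vehicle were Ly6d, Ly6c1, Ly6c2, Ly6e and Cd28. Ly6e was at 605 and 444 CPM in vehicle and 267 and 282 CPM with the drug (log2 change -0.92, SE 0.16, adjusted p = 0.00596). Cd28, a costimulatory receptor best known from T cells, was a low gene, at 43.7 and 38 CPM in vehicle and at 0 and 5.65 CPM with the drug, where a count of 0 allows up to 6.74 CPM. Tyrobp, the adaptor DAP12 through which Siglec-H signals, was at 3301 and 3100 CPM in vehicle and 2364 and 2155 CPM with the drug. It passed on p (adjusted p = 0.00876) but its log2 change of -0.49 lay just under the size limit. Clec12a, an inhibitory lectin, fell against WT, from 354 and 374 CPM to 160 and 149 CPM (-1.23, SE 0.14, adjusted p = 7.15e-05), and had -0.76 against vehicle (adjusted p = 0.0154, and 0.000261 without doublet signs). The Ly6e call against vehicle held under 11 of 13 alternatives and that of Cd28 under 7.

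Among the trafficking genes, Ccr2, a receptor for egress from marrow, fell against WT. It was at 232 and 267 CPM in WT, 178 and 169 CPM in vehicle and 106 and 71.5 CPM with the drug (-1.50 against WT, SE 0.18, adjusted p = 0.000128, and -0.97 against vehicle, adjusted p = 0.021). Among 15 cytokine receptors 1 was called (0.618% of all genes were), Il7r, which fell from 345 and 333 CPM in vehicle to 209 and 164 CPM (-0.86, SE 0.15, adjusted p = 0.00596), a call that held under 7 of 13 alternatives. Flt3, the receptor for the growth factor on which pDCs depend, did not pass (-0.16, SE 0.18, adjusted p = 0.813).

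Few genes of nucleic acid sensing passed the test, which can miss small changes. Of 28 genes tested, 2 fell against vehicle, beside 0.561% of all genes, and none was called against WT, where 0.955% of all genes were. Unc93b1, which carries Toll-like receptors to endosomes, was at 540 and 558 CPM in vehicle and 449 and 474 CPM with the drug (-0.24, SE 0.12, adjusted p = 0.445). Tlr7 was at 43.7 and 92.6 CPM in vehicle and 42.7 and 50.8 CPM with the drug (-0.54, SE 0.33, adjusted p = 0.56). Tlr9 was below the limit for a test, at between 3.76 and 10.3 CPM in the 6 libraries. The pair that fell was Ctsb, a lysosomal protease (-0.69, SE 0.12, adjusted p = 0.00495), and Hmgb1, a DNA-binding protein (-0.65, SE 0.11, adjusted p = 0.00387). Each of these calls held under 9 of 13 alternatives. Irf7, the factor for interferon transcription, was at 51.4 and 80.8 CPM in vehicle and 83.1 and 67.8 CPM with the drug (0.18, SE 0.28, adjusted p = 0.874).

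No interferon transcript was found. None of the 20 type I and type III interferon genes present in the files had a UMI in any of the 429 pDCs, which over 3318515 UMIs allows up to 0.904 CPM for each. Of 32 interferon response genes tested 0 were called against vehicle, where 0.618% of all genes were, and their median log2 change was 0.14. Without doublet signs, and by the rule on Tcf4, Irf8 and Bst2, Ifi203 was called against vehicle. Against WT 4 of 32 rose, beside 0.182% of all genes. Ifi27l2a was at 572 and 563 CPM in WT, 900 and 824 CPM in vehicle and 978 and 965 CPM with IACS-70654 (0.79 against WT, SE 0.10, adjusted p = 0.000223). Both groups of tumor-bearing mice lay above WT, though vehicle did not pass (0.61, SE 0.10, adjusted p = 0.0717) except without doublet signs, where it was called. Ifi203, a member of the p200 DNA-sensing family, was at 182 and 213 CPM in WT, 172 and 223 CPM in vehicle and 353 and 320 CPM with the drug (0.78 against WT, SE 0.15, adjusted p = 0.00816). The other two were Ifitm2 (1.13, SE 0.21) and Ifitm1 (2.39, SE 0.32), which neutrophils also express. Of 13 alternatives the call of Ifi27l2a held under 12, that of Ifitm1 under 10 and those of Ifitm2 and Ifi203 under 7 each. Ifitm1 had 1746 and 1781 CPM in the other kept cells of the drug libraries. Without the pDCs that bore doublet signs neither was called, with 0.74 for Ifitm1 (adjusted p = 0.311) and 0.46 for Ifitm2 (adjusted p = 0.357).

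Mzb1, an endoplasmic reticulum chaperone of cells that secrete, stood apart from the rest of the secretory genes. It was at 127 and 84.2 CPM in WT, 118 and 145 CPM in vehicle, and 13.5 and 13.2 CPM with IACS-70654, a log2 change of -3.28 against vehicle (SE 0.36, adjusted p = 5.54e-05) and -2.95 against WT (SE 0.35, adjusted p = 7.96e-05). It was the only 1 of 48 secretory and endoplasmic reticulum genes called in either comparison, beside 0.618% and 0.955% of all genes. The median of the 48 was -0.26 against vehicle. Hspa5, the chaperone BiP, had -0.27 (SE 0.13, adjusted p = 0.437), and Hsp90b1 had -0.27 (SE 0.11, adjusted p = 0.31).

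Cell cycle genes were mostly lower with the drug, though few passed. Of 39 tested 1 fell against vehicle and 5 fell against WT, beside 0.561% and 0.772% of all genes, and the median log2 change was -0.74 against vehicle and -0.85 against WT, beside 0.01 for all genes in both. Stmn1, which takes microtubules apart, was at 326 and 373 CPM in WT, 329 and 261 CPM in vehicle and 96.6 and 137 CPM with IACS-70654 (-1.30 against vehicle, SE 0.19, adjusted p = 0.00129). Pclaf, lower in vehicle than in WT without passing, was at 24.7 and 26.3 CPM with the drug (-2.89 against WT, SE 0.23, adjusted p = 1.23e-06). The others called against WT were Top2a, whose call held under 6 of 13 alternatives, and the tubulins Tuba1b and Tubb5, with 7 each. Without doublet signs Pclaf had -5.18 against WT, and Top2a had -2.75, where it was -1.17 with all pDCs. Both were then called against vehicle too, and Pclaf also for vehicle against WT. At least 2 UMIs of Mki67 and Top2a together, genes of dividing cells, were held by 11.5% and 14% of WT pDCs, 10% and 7.41% of vehicle pDCs, and 3.57% and 6.90% of IACS-70654 pDCs. After thinning these shares were 6.80% and 6.60%, 8% and 5.56%, and 1.79% and 5.17%. Both drug libraries lay below both vehicle libraries, by small numbers of cells.

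The drug's own targets were level. Crebbp (CBP) was at 264 and 276 CPM in WT, 283 and 276 CPM in vehicle and 249 and 311 CPM with IACS-70654, and Ep300 (P300) at 92.1 and 111, 131 and 99.8, and 144 and 113 CPM. Neither was called in any comparison. Of 28 genes of acetylation and of bromodomain proteins tested, only Hdac9, a class IIa deacetylase, was called against vehicle (0.618% of all genes were), and it fell from 677 and 544 CPM in vehicle to 369 and 260 CPM (-0.96, SE 0.18, adjusted p = 0.00883). That call was lost under 6 of 13 alternatives, while the change stayed between -1.22 and -0.72.

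**Figure D4:**
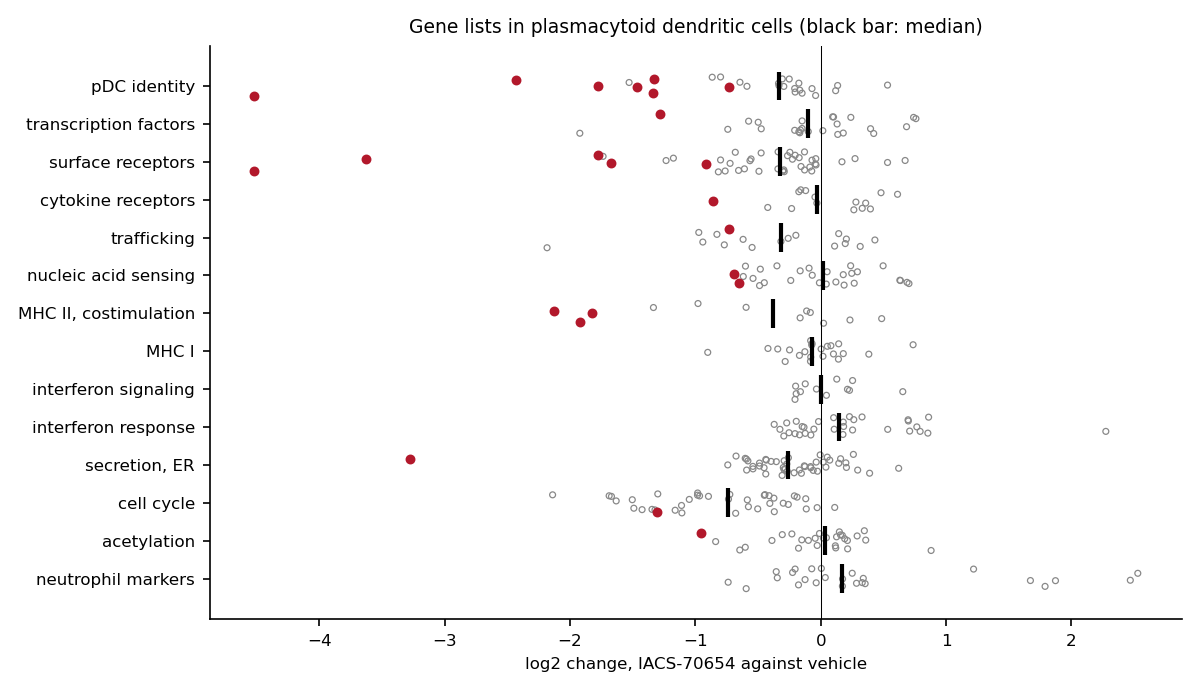
Log2 change of IACS-70654 against vehicle (x axis) for the tested genes of 14 gene lists in pDCs, without Siglech and Ccr9. Filled red points are called genes, open points are the rest and black bars are list medians. pDC identity and surface receptor genes reach below -4 (Ly6d, in both lists). Interferon signaling, interferon response, neutrophil markers and MHC class I hold no called gene, where 0.618% of all genes were called.

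Genes outside the lists fell as well. Lat2, an adaptor of B cell and myeloid receptors, was at 127 and 162 CPM in WT, 126 and 133 CPM in vehicle and 36.0 and 35.8 CPM with the drug (-1.84 against vehicle, SE 0.26, adjusted p = 0.00105). Sh3bgr, named for its SH3-binding, glutamate-rich sequence, was at 74.6 and 73.6 CPM in vehicle and 11.2 and 16.9 CPM with the drug (-2.34, SE 0.35, adjusted p = 0.00206). Nek6, a mitotic kinase, was at 108 and 102 CPM in vehicle and 40.4 and 9.41 CPM with the drug (-2.13, SE 0.39, adjusted p = 0.00794). The Nek6 call held under 10 of 13 alternatives, and its change was -3.44 without IACS-70654 replicate 1 and -1.38, no longer called, without replicate 2. Further genes, singled out after their values were seen, were Lgals1 (galectin-1), from 1873 and 1801 CPM to 996 and 962 CPM (-0.90, SE 0.10, adjusted p = 7.96e-05), Cmah (the enzyme for N-glycolylneuraminic acid), from 540 and 644 CPM to 204 and 263 CPM (-1.32, SE 0.15, adjusted p = 7.59e-05), and Cd180 (the Toll-like receptor RP105), from 247 and 268 CPM to 137 and 86.6 CPM (-1.22, SE 0.20, adjusted p = 0.00311).

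Of the 4 genes that rose against vehicle, a pair is of neutrophils. Stfa3, a stefin A protease inhibitor, was at 37.4 and 29.4 CPM in WT, 23.2 and 30.9 CPM in vehicle and 110 and 262 CPM in IACS-70654 pDCs (log2 change 2.80, SE 0.40, adjusted p = 0.00129). Its relative Cstdc4 rose likewise (2.12, SE 0.34, adjusted p = 0.00255), and reads of these close copies may be split between them. In the other kept cells of the same libraries Stfa3 was at 170 and 185 CPM in vehicle and 1714 and 1696 CPM with the drug. Without the pDCs that bore a doublet sign, Stfa3 was at 26 and 35.4 CPM in vehicle and 16.4 and 31.9 CPM with the drug, and the direction turned (-0.33, adjusted p = 0.854). Without IACS-70654 replicate 2 the Stfa3 change was 2.01. Cstdc4 turned too (-0.37, adjusted p = 0.808). The other two that rose, both low in vehicle and outside the lists, were Pid1 and Slit2. Pid1, which encodes an adaptor with a phosphotyrosine-binding domain, was at 48.9 and 40.4 CPM in vehicle and 151 and 113 CPM with the drug (1.56, SE 0.26, adjusted p = 0.00387), but also at 89.5 and 75.3 CPM in WT. Slit2, a secreted guidance ligand, had 5 and 1 UMIs in the vehicle pDCs and 38 and 34 UMIs with the drug (85.4 and 64.0 CPM). In the other kept cells it was at between 0.617 and 2.23 CPM in each library, and without doublet signs it was at 101 and 85.0 CPM in the drug pDCs.

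IACS-70654 was also compared with WT, a contrast in which tumor and drug differ together and cannot be told apart. Of 7124 genes 68 were called (0.955%), 13 higher (0.182%) and 55 lower (0.772%). Without Ccr9 there were 67. The comparison shares its drug libraries with the one against vehicle, so the lists are not independent: 28 genes were called in both, 63.6% of the 44 and 41.2% of the 68, or 27 of the 43 and of the 67 once Ccr9 is left out. Malat1, a nuclear long noncoding RNA, was the most abundant of the genes named here to rise. It was at 9286 and 9087 CPM in WT, 9703 and 10378 CPM in vehicle and 14072 and 13434 CPM with the drug (0.60 against WT, SE 0.07, adjusted p = 0.000128). Against vehicle the change was 0.46 (SE 0.07, adjusted p = 0.00255), under the size limit. In the other kept cells Malat1 was at between 6293 and 6916 CPM without drug and at 8106 and 8167 CPM with it. Etv6 and Srgap2 rose as well, by 0.63 (SE 0.12) and 1.02 (SE 0.19), as did Rnf213, an interferon-inducible ubiquitin ligase, from 29.4 and 30.6 CPM in WT to 80.9 and 82.8 CPM (1.46, SE 0.25, adjusted p = 0.00355). Elane, Cstdc5 and Wfdc17, genes of neutrophils or their precursors, were among the 13 too. Elane was at 276 CPM in IACS-70654 replicate 1 and 94.1 CPM in replicate 2, beside between 52.1 and 61.7 CPM in the 4 others. Its change of 1.78 was only 0.84 without IACS-70654 replicate 1. Without doublet signs the call was lost (0.016, adjusted p = 0.989). Cstdc5 turned to -0.10 (adjusted p = 0.911) without doublet signs, and was 0.87 without IACS-70654 replicate 2. Txnip, which the study names, was not called (0.55 against vehicle, SE 0.19, adjusted p = 0.195).

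To see whether B cells or monocytes shared the drug's changes, the change of each gene in pDCs was tested against its change in each of these classes of the same libraries. Neutrophils were not compared. For B cells 94 of 9133 genes differed (1.03%), 32 with a difference above 0 (0.35%) and 62 below 0 (0.679%). For monocytes 36 of 11592 differed (0.311%), 11 with a difference above 0 (0.0949%) and 25 below 0 (0.216%). Of the 43 genes called in pDCs besides Ccr9, 11 differed from B cells and 8 from monocytes, while 14 had an adjusted p under 0.01 in B cells themselves and 18 in monocytes. These genes were chosen for their change in pDCs. Over all genes tested, 601 of 8566 were called in B cells and 648 of 11519 in monocytes for the same comparison, with the size limit as well.

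MHC class II went opposite ways in pDCs and B cells. In B cells H2-Aa rose from 190 and 239 CPM in vehicle to 872 and 1026 CPM with IACS-70654 (log2 change 2.17, adjusted p = 7.95e-07), while it fell in pDCs, a difference of -4.14 (SE 0.29, adjusted p = 8.74e-09). H2-Eb1 differed by -4.57 (SE 0.37, adjusted p = 3.82e-08) and Cd74 by -3.97 (SE 0.32, adjusted p = 3.82e-08). The B cells of the drug libraries were 44 and 100 cells, and a shift among B cell stages and a change within each cannot be told apart in these sums. Monocytes moved as pDCs did: H2-Aa changed by -2.03 there (adjusted p = 1.03e-06), and the difference from pDCs was 0.04 (SE 0.26, adjusted p = 0.991). Lat2, likewise, had -1.89 in monocytes (adjusted p = 6.04e-09) and a difference of 0.02 (SE 0.31), and Lgals1 had -0.97 (adjusted p = 2.47e-11) and a difference of 0.05 (SE 0.12).

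**Figure D5:**
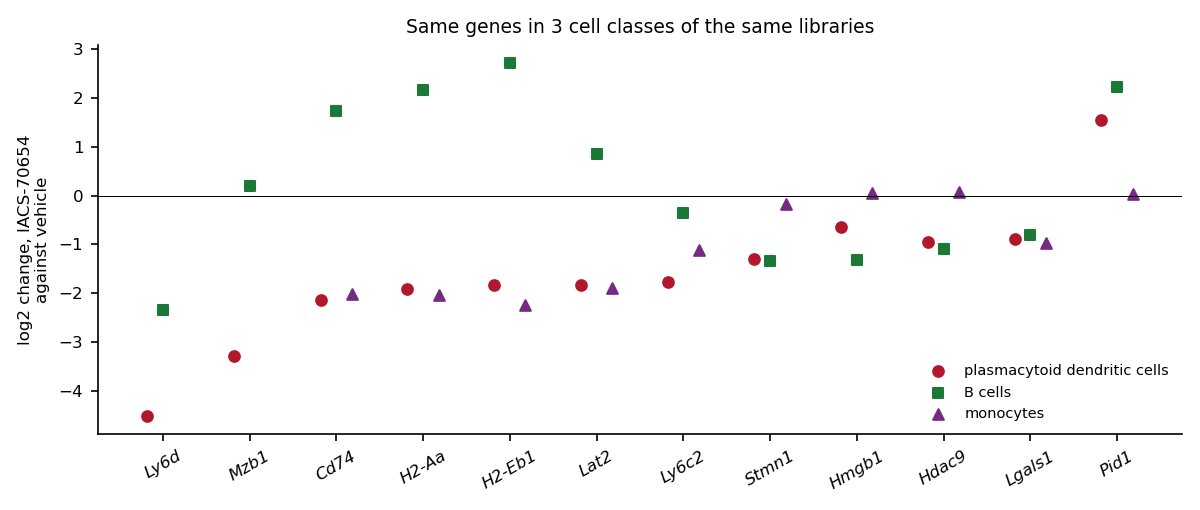
Log2 change of IACS-70654 against vehicle (y axis) of 12 genes (x axis) in pDCs (circles), B cells (squares) and monocytes (triangles) of the same 4 libraries, as fitted by edgeR in each class. A class has no point where a gene was too low in it to be tested, as for Ly6d and Mzb1 in monocytes. Class II genes lie below 0 in pDCs and monocytes and above 0 in B cells.

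Mzb1 fell in pDCs and not in B cells, where it was at 655 and 696 CPM in vehicle and 1002 and 564 CPM with the drug (difference -3.50, SE 0.36, adjusted p = 2.98e-06). The B cell sums also held plasma cell RNA, unevenly. Jchain was at 5157 and 5901 CPM in vehicle and 976 and 5444 CPM with the drug there. The part of plasma cells in the Mzb1 difference was not tested. Ly6d fell in both pDCs and B cells, from 397 and 313 CPM to 94.5 and 53.1 CPM in B cells (-2.35, adjusted p = 2.06e-06), and the difference of -2.24 did not pass (SE 0.53, adjusted p = 0.0223). Several genes that differed from monocytes were near level there. Stmn1 had -0.16 in monocytes and differed by -1.17 (SE 0.19, adjusted p = 0.000891), Hdac9 had 0.08 and differed by -1.07 (SE 0.18, adjusted p = 0.0011), and Hmgb1 had 0.05 and differed by -0.73 (SE 0.13, adjusted p = 0.00119). In B cells Hdac9 and Hmgb1 fell too, with -1.10 (adjusted p = 0.000196) and -1.32 (adjusted p = 6.95e-06). Neither difference between pDCs and B cells was called. Pid1, at 368 and 402 CPM in vehicle monocytes and 400 and 381 CPM in drug monocytes, differed by 1.50 (SE 0.25, adjusted p = 0.0011). The count against monocytes rests on both vehicle libraries, since it was 14 without vehicle replicate 1 and 2 without vehicle replicate 2.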

How the data were processed

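Droplet single-cell RNA libraries were made from sorted marrow cells, with samples marked by oligonucleotide tags. The authors deposited raw UMI counts per gene and cell from Cell Ranger (mm10; version 7.2.0 in the headers of the CD45+ marrow matrices), and these deposited counts were used as they stand. The cell limits (over 200 and under 6000 genes, and no more than 10% mitochondrial UMIs) followed the rule for pDCs. Counts of the pDCs of a library were summed, since cells are not replicates, and tested with edgeR 4.0.16 (quasi-likelihood test, filterByExpr, TMM factors, Benjamini-Hochberg adjustment) on R 4.3.3, over all 3 groups together. The study's own limits set a call: adjusted p below 0.01, and a log2 change beyond 0.5 either way. Differences between cell classes were tested as a class-by-group term with the library as a block. DESeq2 1.42.0 and limma 3.58.1 were alternatives. Single genes were rerun under 13 alternatives. These were DESeq2, its size factors in edgeR, library totals only, the replicate number as a block, and the omission of each of the 6 libraries. The rest were leaving out pDCs with doublet signs, stricter members and the rule on Tcf4, Irf8 and Bst2. Omissions include libraries of the group outside the comparison. limma-voom, thinning, the count filters and the 5% mitochondrial limit are not among the 13. Scrublet marked under 0.5% of cells in 5 of 6 libraries, too few to rely on, so doublet signs in the counts were used beside it. On simulated data for IACS-70654 against vehicle the test recovered 28.5% of changes of log2 1 (7084 genes) and 87.5% of log2 2 (6968 genes), with 0 false calls. The simulation gave every gene the same spread, changed only better counted genes and held no doublets, so these rates may not carry over. Same-numbered libraries did not deviate together (correlations 0.0332, -0.0929 and -0.0701) and were not paired. Genes were named by rule: in each comparison the 10 called genes of largest change with groups that do not overlap and a mean of at least 50 CPM (no mitochondrial genes), in each list the called members and up to 4 of the highest level, in each class test the 5 largest called differences at 50 CPM or more in pDCs, and Siglech, Ccr9, Crebbp, Ep300, Malat1 and Txnip. Irf7, Tlr7, Tlr9, Spib, Pid1, Slit2, Etv6, Srgap2, Rnf213, Wfdc17 and those said to be singled out were chosen after their values were seen. The members and lists were chosen with earlier results of these data known. A called gene counted in its lists is not reported here.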

Additional observations from a re-analysis of the deposited data

Results flagged for a closer look

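The response to IACS-70654 against vehicle differed between pDCs and B cells or monocytes in several genes, by the test of the difference itself (edgeR quasi-likelihood test, Benjamini-Hochberg adjustment). Against B cells the largest differences of log2 change, among genes called by that test with a mean of at least 50 CPM in pDCs, were H2-Eb1 with -4.57 (SE 0.37), H2-Aa with -4.14 (SE 0.29), Cd74 with -3.97 (SE 0.32), Mzb1 with -3.50 (SE 0.36) and Tmcc3 with -3.04 (SE 0.54, adjusted p = 0.00197).

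Against monocytes, by the same limits, they were Ly6d with -4.26 (SE 0.88, adjusted p = 0.00782), Nek6 with -2.61 (SE 0.54, adjusted p = 0.00779), Angpt1 with 2.38 (SE 0.44, adjusted p = 0.00231), Tmcc3 with -2.29 (SE 0.48, adjusted p = 0.00905) and Clec10a with -2.27 (SE 0.45, adjusted p = 0.00461). Ly6d had between 1 and 5 UMIs in the monocytes of each library, so its difference there sets a fall in pDCs against a gene at background. In pDCs themselves Angpt1 (log2 change 1.26), Clec10a (-1.74) and Tmcc3 were not called against vehicle.

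Cells that meet the rule for pDCs were also present in libraries that no comparison here uses. The 4 tumor libraries held 164 such cells of 13830 kept, and the 6 libraries of Lin- c-Kit+ marrow held 13 of 28155.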

How the results depend on the processing

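With 2 libraries per group and between 50 and 107 pDCs per library, low genes limit what could be seen. The log2 ratio of pDC shares for vehicle against WT, -1.34, was -0.87 by 8 independent markers, -0.65 per monocyte, 1.09 per B cell and -1.17 by the rule on Tcf4, Irf8 and Bst2, which was chosen after seeing the data. For IACS-70654 against vehicle, 0.17, it was -0.095 after thinning, -0.74 with stricter members, -0.30 by independent markers, 1.40 per B cell and -0.99 per monocyte. For IACS-70654 against WT, -1.17, it was -1.43 after thinning, -2.10 with stricter members, 2.48 per B cell and -1.63 per monocyte. Stricter members needed at least 4 Siglech UMIs and a Ccr9 UMI, so their share moves with the level of Ccr9 and is no measure of pDC number alone. The 8 markers include Cox6a2, Klk1 and Smim5, which fell with the drug, so the share by these markers moves with their level too. They also took more cells, a mean of 4.11% in WT, 2.24% in vehicle and 1.82% with IACS-70654. Leaving out 1 library gave -1.41 to -1.27, 0.02 to 0.30 and -1.32 to -1.03.

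Called genes, in the order vehicle against WT (0), IACS-70654 against vehicle (44) and IACS-70654 against WT (68), numbered 34, 150 and 221 with no filter on low counts, 1, 126 and 187 at an adjusted p under 0.05 and any size, and 4, 119 and 122 without doublet signs. They were 2, 23 and 47 after thinning, 2, 97 and 90 by the rule on Tcf4, Irf8 and Bst2, 0, 15 and 17 with stricter members and 0, 27 and 43 at no more than 5% mitochondrial UMIs. DESeq2 called 0, 33 and 42 and limma-voom 0, 32 and 50. Without 1 library the counts ran from 1 to 17, 47 to 75 and 60 to 158. They were 69 and 75 for IACS-70654 against vehicle without WT replicate 1 and 2, and 147, 158 and 104 for IACS-70654 against WT without vehicle replicate 1, vehicle replicate 2 and IACS-70654 replicate 1. With the replicate number as a block they were 0, 32 and 46.

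Differences from B cells (94) were 151 with no filter and 40 to 84 without 1 library (41 and 40 without vehicle replicate 1 and 2). Those from monocytes (36) were 79 and 2 to 60 (60 without IACS-70654 replicate 1). Directions turned for Stfa3 (-0.33 against vehicle, -0.22 against WT), Cstdc4 (-0.37 and -0.035) and Cstdc5 (-0.10 against WT) without doublet signs, and for Elane (-0.054 against WT) by the rule on Tcf4, Irf8 and Bst2. Beyond these constructions, the cause was not tested. Cox6a2 stayed called against vehicle and WT in all 13 alternatives used for single genes.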
